A study of Homo sapiens with 24 samples.

Results

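Interferon-stimulated genes are the genes that a cell turns on when an interferon binds its receptor, and 43 of them were followed here in 4 glioblastoma cell lines. The 43 were taken as a list of symbols that spans the transcription factors of the response, the sensors of viral RNA and the antiviral effectors. Each matched 1 of the 43037 genes measured, through its Ensembl identifier. A filter of at least 5 CPM (tags of a gene scaled to a common library total) in at least 1 library left 12327 genes for testing, among them 41 of the 43. IRF9, the DNA-binding partner of STAT2, and CMPK2, a mitochondrial nucleotide kinase, did not pass, with at most 0.358 and 2.71 CPM in any library. IRF9 overlaps other gene models on the same strand (ENSG00000259529) and on the opposite strand (ENSG00000289757), so the share of its tags credited to it is uncertain. The RNA polymerase II start sites of the genes were read by CAGE-Seq, which sequences the 5′ ends of capped transcripts, so that a value counts transcript starts and is not scaled by length.

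The lines were U87MG, T98G, U251MG, and DBTRG-05MG, established human glioblastoma lines, each in a control variant (“Vec”) and a variant given WWOX (“WWOX”), at 3 libraries apiece. “WWOX” cells were transduced with the lentivirus system pLenti-GIII-CMV-GFP-2A-Puro carrying WWOX (WW domain-containing oxidoreductase, a tumor suppressor), and “Vec” cells with Puro-Blank Lentivirus. All 8 groups shared the transduction at a multiplicity of infection of 1.5 and the selection with 1 µg/mL puromycin started after 72 h, and untransduced cells were not analysed here. T98G grew in MEM, DBTRG-05MG in RPMI 1640, and both other lines in EMEM, so that line and medium cannot be told apart except between U87MG and U251MG. The study describes the libraries of a group as biological replicates. The labels do not say whether the 3 came from separate cultures, and p-values measure the spread between these libraries. Each group is 1 variant of 1 cell line.

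Interferons are secreted proteins that signal through paired receptors to the kinases JAK1, TYK2, and JAK2. Type I and type III interferons lead to a complex holding STAT2 and IRF9 that binds the interferon-stimulated response element in promoters, whereas type II interferon acts through the gamma-activated site. The induced proteins sense viral RNA, stop translation, block viral entry or hold virions at the cell surface, and many of these genes are also transcribed at a basal level in cells without infection.

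Promoter sequences are shown for the 5 members whose libraries of one group differed most (IFITM1, IFI27, BST2, ISG15, and IFI6) and for STAT2, whose libraries differed least. These were chosen after their values had been seen. Each runs from 160 bases before the RefSeq start site (GRCh38.p14) to 10 bases after it, in the direction of transcription. Capitals mark matches to the response element, searched on both strands as 2 copies of GAAA with 2 bases between them, where overlapping matches run together. The positions are chr1:1013337-1013506 (plus strand) for ISG15, chr1:27672183-27672352 (minus strand) for IFI6, chr14:94110576-94110745 (plus strand) for IFI27, chr11:313880-314049 (plus strand) for IFITM1, chr19:17405621-17405790 (minus strand) for BST2, and chr12:56360098-56360267 (minus strand) for STAT2.
ISG15: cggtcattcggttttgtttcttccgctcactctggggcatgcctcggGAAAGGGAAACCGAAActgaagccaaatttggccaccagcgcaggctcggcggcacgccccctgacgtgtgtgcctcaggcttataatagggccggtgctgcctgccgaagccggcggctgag
IFI6: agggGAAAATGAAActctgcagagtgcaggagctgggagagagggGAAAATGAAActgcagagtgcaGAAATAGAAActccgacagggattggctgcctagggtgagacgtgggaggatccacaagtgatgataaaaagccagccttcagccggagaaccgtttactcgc
IFI27: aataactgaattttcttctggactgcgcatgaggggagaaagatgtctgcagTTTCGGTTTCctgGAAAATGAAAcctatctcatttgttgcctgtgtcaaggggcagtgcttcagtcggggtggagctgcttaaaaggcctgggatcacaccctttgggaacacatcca
IFITM1: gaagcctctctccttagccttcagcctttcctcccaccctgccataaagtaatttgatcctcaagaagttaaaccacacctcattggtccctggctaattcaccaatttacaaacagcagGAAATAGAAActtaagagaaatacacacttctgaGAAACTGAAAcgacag
BST2: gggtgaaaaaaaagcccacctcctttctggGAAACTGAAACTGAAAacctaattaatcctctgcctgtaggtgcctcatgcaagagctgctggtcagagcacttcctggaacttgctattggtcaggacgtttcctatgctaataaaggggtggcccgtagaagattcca
STAT2: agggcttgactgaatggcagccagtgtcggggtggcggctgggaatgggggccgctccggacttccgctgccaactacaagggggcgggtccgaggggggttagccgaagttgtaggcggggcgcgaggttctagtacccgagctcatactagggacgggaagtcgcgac

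In ISG15, a ubiquitin-like modifier, both matches overlap and begin 113 and 107 bases before the start. IFI6, a small membrane protein, holds 3 matches between 156 and 93 bases before the start, and IFI27, its mitochondrial relative, holds 1 on each strand, beginning 108 and 95 bases before it. In IFITM1, which blocks fusion of viruses with the membrane, the matches begin 40 and 6 bases before the start, and in BST2 (tetherin), which holds budding virions on the cell, 130 and 124 bases before it. The STAT2 stretch holds no match. RefSeq windows of 300 bases (250 before the start and 50 after it) were at hand for 33 of the 43 members. Of these, 22 (66.7%) held a match, against 3.57% of 35116 windows of all genes and 2.83% of 9744 windows of tested genes. The gamma-activated site, searched as TTC and GAA with 3 bases between them, was in 9 of the 33 (27.3%), against 7.66% of all windows. The 6 stretches shown are not typical of all members. HERC5, PLSCR1, and IFIT5, whose libraries differed little, also held matches, and RSAD2 and OAS1, whose libraries differed much, held none. A match describes the letters of a window and does not show binding.

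The targeted gene was read first as a check of the labels. WWOX held 40.1, 33.9, and 39.8 CPM for U87MG, 38.6, 57.2, and 34.2 for T98G, 31.4, 36.8, and 32.1 for U251MG, and 20.4, 22.2, and 21.3 for DBTRG-05MG as “Vec”. In the libraries labelled “WWOX” it held 65.96, 61.3, and 60.98 CPM for U87MG, 45.1, 61.8, and 59.95 for T98G, 56.7, 17.4, and 38.01 for U251MG, and 31.97, 28.2, and 27.96 for DBTRG-05MG. The variants did not overlap in U87MG (log2FC 0.66 ± 0.22, SE) and in DBTRG-05MG (0.39 ± 0.22), and overlapped in T98G (0.38 ± 0.22) and in U251MG (-0.01 ± 0.22). None passed the limma test (smallest adjusted p = 0.137, in U87MG). The study reports Western blot of extracted protein as its evidence that the transduction worked, and tags on the gene do not measure protein. In U251MG the library labelled “WWOX” 2 lay below all 3 “Vec” libraries, so directions in that line refer to the labels. A transcript started in the vector need not give a tag on the WWOX gene, and what share of it was counted was not tested.

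The libraries held 10756072 to 16953689 tags on genes, and 3 tags, the limit used for a gene not detected, equal 0.177 to 0.279 CPM. The summed level of markers of glioblastoma lines (SOX2, NES, VIM, GFAP, S100B, OLIG2, and CD44) ran from 737 to 5686 CPM. Outside U251MG most of it was CD44, with 679 to 992 CPM in U87MG “Vec” and 1230 to 1304 CPM in T98G “WWOX”. VIM had group means from 14.9 to 60.4 CPM. In T98G “Vec” the means of SOX2, NES, and S100B were 0.36, 0.18, and 0.099 CPM. Of the markers listed, SOX2 was at or under 3 tags in both variants of U87MG and S100B in T98G “Vec” and U87MG “WWOX”. NES was so in T98G “WWOX”, and OLIG2 in U251MG “Vec” and DBTRG-05MG “WWOX”. Of the 9 genes listed for leukocytes and microglia, PTPRC, AIF1, CD3E, MS4A1, P2RY12, and CX3CR1 were at or under 3 tags in all 8 groups. The 9 summed to at most 12.4 CPM in any library, most of it TMEM119 (11.6 CPM, 150 tags, in U87MG “Vec” 2). In T98G, TMEM119 was higher without overlap in “WWOX” (mean 1.69 CPM) than in “Vec” (0.12 CPM, adjusted p = 0.113 with limma). CD68 reached 12 tags in U87MG “Vec”, and ITGAM 4 tags in T98G “Vec”. The endothelial list (PECAM1, CDH5, and VWF) summed to at most 13.3 CPM, nearly all of it CDH5 in U251MG. The quartile of genes with the highest GC content differed from the quartile with the lowest by 1.25 (log2, against the mean library) in U251MG “WWOX” 2 and by -0.88 in U251MG “WWOX” 1, within a range of -0.91 to 1.25 over the 24 libraries. A correction for GC content and transcript length was chosen only once the data had been seen.

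The members differed more than other genes between libraries of the same group. The SD within groups (log2 of scaled CPM + 0.5, 16 degrees of freedom) had a median of 0.72 over the 41 tested members and of 0.40 over all 12327 genes. It lay above the upper quartile of all genes (0.51) for 33 of the 41, and above 1 for 14 of the 41 (34.1%), against 1.23% of all genes. The highest were IFITM1 (1.82), IFI27 (1.72), BST2 (1.70), ISG15 (1.65), and IFI6 (1.56), and the lowest was STAT2 (0.24). After the correction for GC content and transcript length the medians were 0.72 and 0.34. The 22 tested members with a match to the response element as searched had a median SD of 0.78 (0.35 to 1.82). The 9 tested members whose window held no match had 0.64 (0.24 to 1.42). Among these 9, the windows of OAS1 (SD 1.32), RSAD2 (SD 1.42), and XAF1 (SD 0.64) hold GAAACGAAA, with 1 base between the copies of GAAA. That of IFI35 (SD 0.68) holds GAAATGAAA, with the same spacing, so it occurred at high and at lower SD. The search did not count that spacing, so the 9 lack the searched string and not every such element.

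**Figure D1:**
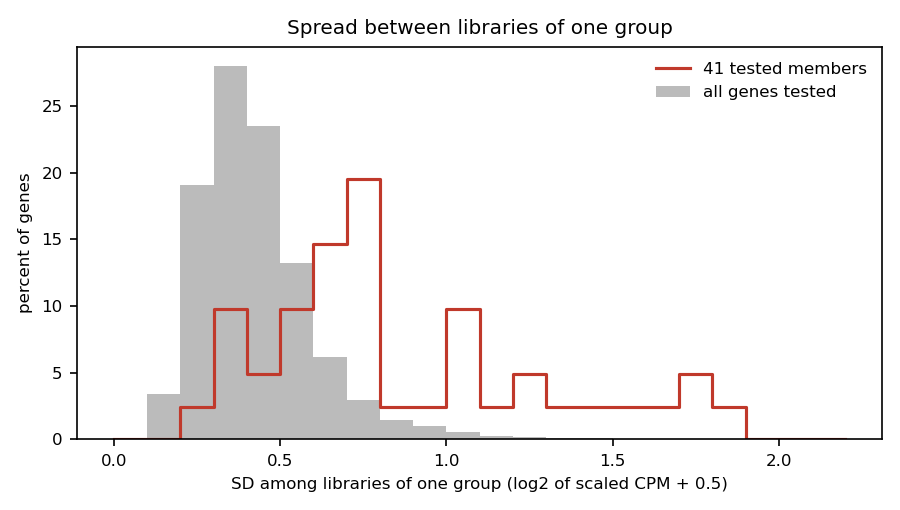
Percent of genes (vertical axis) by SD among libraries of one group (horizontal axis, log2 of scaled CPM + 0.5, bins of 0.1), with all 12327 tested genes as grey bars and the 41 tested interferon-stimulated genes as a red line. The red line lies to the right of the bars, with 34.1% of members and 1.23% of all genes above 1.

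The spread was shared by most members, and it fell on particular libraries of U251MG and DBTRG-05MG. In U251MG “WWOX”, replicate 1 was the lowest of the 3 libraries for 34 of 41 members and replicate 2 the highest for 29, while over all genes these shares were 38.2% in both cases. ISG15 held 50.1, 5408, and 568 CPM there and IFI6 178, 6956, and 988 CPM, so that the highest library stood 108-fold and 39.1-fold above the lowest. In U251MG “Vec”, replicate 1 was the highest for 32 of 41 members (34.7% of all genes), with 1268, 236, and 206 CPM of ISG15. In DBTRG-05MG “Vec”, replicate 2 was the lowest for 36 of 41 (35.2% of all genes), with 405, 76.4, and 633 CPM of ISG15 and 17.7, 1.87, and 23.4 CPM of OAS1, which makes the signal that activates RNase L. In DBTRG-05MG “WWOX”, replicate 1 was the lowest for 30 (36.8% of all genes) and replicate 2 the highest for 35 (23.7% of all genes). In bulk libraries, fewer cells that transcribe a gene and less RNA per cell cannot be told apart.

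The median member differed from its group mean by -1.39 (log2) in U251MG “WWOX” 1, by 0.99 in “WWOX” 2, and by 0.74 in “Vec” 1. With the correction for GC content and length these were -1.29, 1.24, and 0.74, and for DBTRG-05MG “Vec” 2 the median was -0.79 before and -0.80 after it. In U87MG the shifts ran from -0.07 to 0.05, and in T98G the shifts ran from -0.20 to 0.22. Not every member followed on the values as tested. U251MG “WWOX” 2 was the lowest library of its group for 4 members, EIF2AK2 (the RNA-activated kinase that stops translation), DTX3L (a ubiquitin ligase), IFIT5 (a binder of RNA ends), and SAMD9L (a relative of SAMD9), named after their values had been seen. The libraries held 25.9, 4.72, and 19.7 CPM of EIF2AK2, 26.96, 6.72, and 24.9 CPM of DTX3L, 23.5, 9.23, and 23.4 CPM of IFIT5, and 6.58, 4.005, and 7.101 CPM of SAMD9L in replicates 1, 2, and 3. These levels are not corrected, and U251MG “WWOX” 2 had the largest GC difference of the 24 libraries (1.25). With the correction the SD within groups went from 0.61 to 0.38 for EIF2AK2 and from 0.42 to 0.30 for DTX3L. It went from 0.36 to 0.20 for IFIT5 and from 0.59 to 0.51 for SAMD9L, while the median over the 41 went from 0.723 to 0.719. The part of GC content, culture or handling in these shifts was not tested beyond the correction given.

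**Figure D2:**
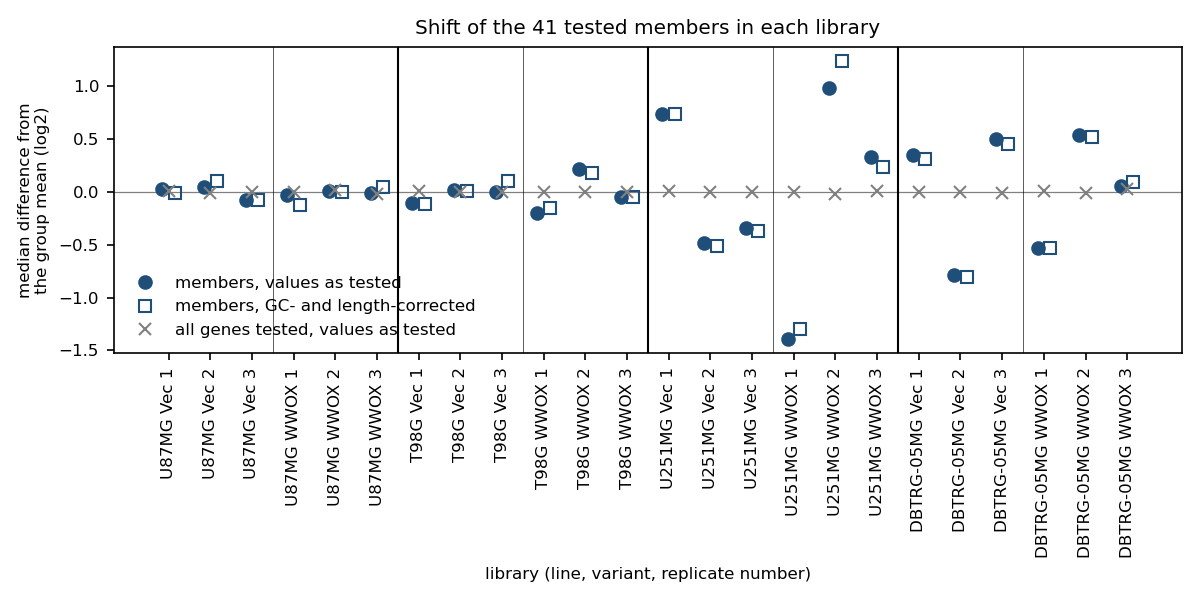
Median difference of the 41 tested interferon-stimulated genes from their group mean (vertical axis, log2) in each of the 24 libraries (horizontal axis), as tested (filled circles) and after correction for GC content and length (open squares), with the median of all genes as crosses. The members reach -1.39 in U251MG WWOX 1 and 0.99 in U251MG WWOX 2, while U87MG libraries stay between -0.07 and 0.05 as tested.

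**Figure D3:**
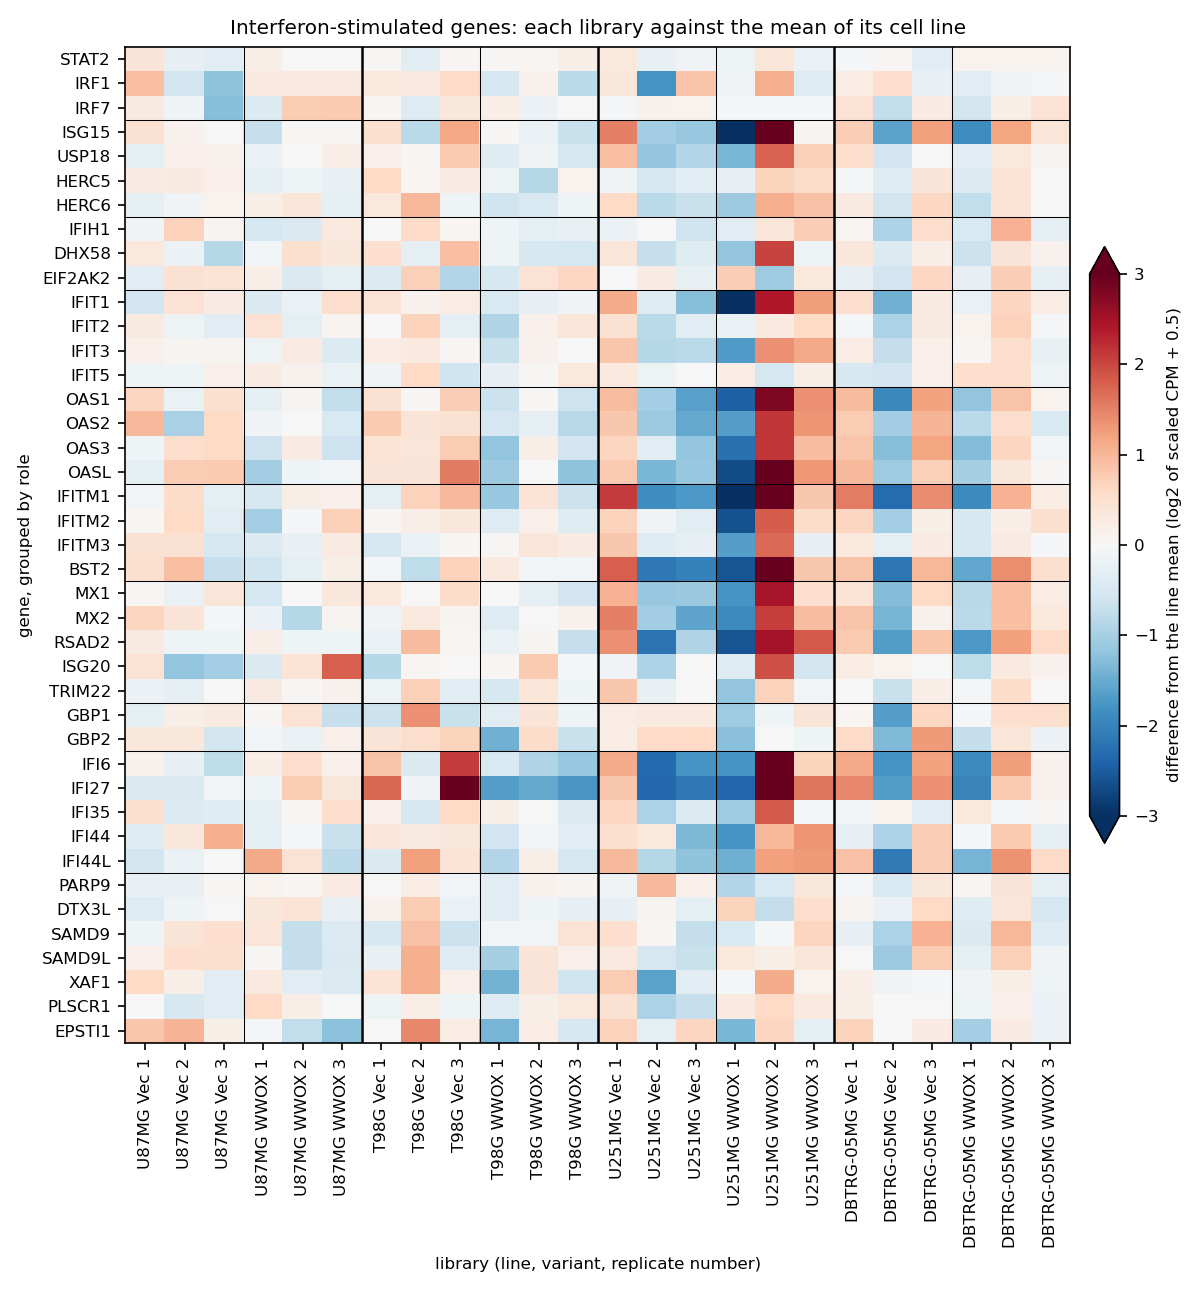
Each of the 41 tested members (rows, grouped by role) in each of the 24 libraries (columns) as the difference from the mean of the 6 libraries of its line (color, log2 of scaled CPM + 0.5, cut at -3 and 3). Columns of U251MG and DBTRG-05MG turn red or blue nearly as a whole, as in U251MG WWOX 1, the lowest library of its group for 34 members.

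The basal level was compared between the “Vec” variants, each line against the mean of the other 3, in a limma model of all 24 libraries with Benjamini-Hochberg adjusted p-values over 12327 genes. The 3 members with the largest differences each way were named in each line. U87MG stood apart as the line with low interferon-stimulated genes: 21 of 41 members passed, 19 lower and 2 higher. Over all genes 45.1% passed, 25.2% lower and 19.9% higher, against 46.3% and 4.88% of members. U87MG held the lowest “Vec” mean for 26 of 41 members (30.9% of all genes), and the median difference over the 41 was -0.90, against -0.05 over all genes. In U87MG the lower members held 3 of 4 of the IFIT family, 3 of 4 of the IFITM family and tetherin, and 3 of 5 tested MX and other effectors. One of these, RSAD2, was at or under 3 tags in every U87MG library, and its call (-2.05 ± 0.82) was lost under 23 other settings, with -1.98 (adjusted p = 0.127 with limma) without U87MG “Vec” 3.

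IFITM1 held 0.142, 0.464, and 0.0701 CPM for U87MG, 62.1, 137, and 135 for T98G, 206, 14.01, and 14.3 for U251MG, and 16.6, 0.644, and 17.1 for DBTRG-05MG as “Vec”. In “WWOX” libraries IFITM1 held 0, 0.272, and 0.254 CPM for U87MG, 33.2, 100.1, and 50.4 for T98G, 5.21, 581, and 102 for U251MG, and 1.18, 12.8, and 6.305 for DBTRG-05MG. Among the IFITM1 “Vec” libraries those of U87MG lay below all other “Vec” libraries, and on scaled values the variants overlapped in every line. In U87MG “Vec” IFITM1 differed by -5.33 ± 1.06 (log2, SE, adjusted p = 0.000248), and in T98G “Vec” it was higher by 4.38 ± 1.06 (SE, adjusted p = 0.00202). BST2 held 1.42, 2.01, and 0.421 CPM for U87MG, 521, 357, and 787 for T98G, 108, 7.24, and 7.3 for U251MG, and 27.4, 2.83, and 33.8 for DBTRG-05MG as “Vec”. In “WWOX” libraries BST2 held 0.489, 0.679, and 1.101 CPM for U87MG, 642, 512, and 527 for T98G, 5.56, 435, and 65.4 for U251MG, and 5.31, 44.1, and 20.9 for DBTRG-05MG. Among the BST2 “Vec” libraries those of T98G lay above all other “Vec” libraries and those of U87MG lay below all other “Vec” libraries, and on scaled values the variants overlapped in every line. BST2 differed by -4.9 ± 0.98 (SE, adjusted p = 0.000294) in U87MG and by 6.23 ± 0.98 (SE, adjusted p = 2.24e-05) in T98G. IFI27 held 0, 0, and 0.1403 CPM for U87MG, 15.3, 4.45, and 42.6 for T98G, 13.6, 1.19, and 1.34 for U251MG, and 156, 16.8, and 164 for DBTRG-05MG as “Vec”. In “WWOX” libraries IFI27 held 0.122, 0.611, and 0.339 CPM for U87MG, 1.02, 1.19, and 0.9904 for T98G, 1.24, 145, and 29.4 for U251MG, and 15.6, 108, and 61.7 for DBTRG-05MG. Among the IFI27 “Vec” libraries those of U87MG lay below all other “Vec” libraries, and on scaled values the variants did not overlap in T98G (“WWOX” lower). In U87MG “Vec” no library held more than 3 tags of IFI27, and the limma difference was -4.86 (log2, adjusted p = 0.000351). Set at 3 tags, the level is at least 199-fold below the arithmetic mean CPM of the other “Vec” groups, 46.1 CPM. That bound is not the tested difference, and most of the mean comes from DBTRG-05MG. DBTRG-05MG “Vec” was higher in IFI27 by 4.51 ± 0.99 (SE, adjusted p = 0.000855), a value that rests in part on U87MG near 0.

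OASL held 17.4, 35.7, and 40.9 CPM for U87MG, 1.898, 2.13, and 4.36 for T98G, 6.89, 1.27, and 1.47 for U251MG, and 3.54, 0.451, and 3.23 for DBTRG-05MG as “Vec”. In “WWOX” libraries OASL held 11.4, 20.3, and 21 CPM for U87MG, 0.372, 1.34, and 0.3301 for T98G, 0.206, 29.5, and 12.3 for U251MG, and 0.5898, 2.33, and 1.58 for DBTRG-05MG. Among the OASL “Vec” libraries those of U87MG lay above all other “Vec” libraries, and on scaled values the variants did not overlap in T98G (“WWOX” lower). OASL, an OAS relative without the enzyme activity, was one of the 2 members higher in U87MG, by 3.53 ± 0.76 (SE, adjusted p = 0.000568). HERC5 held 14.98, 14.99, and 15.5 CPM for U87MG, 7.17, 5.33, and 4.98 for T98G, 10.1, 8.28, and 8.64 for U251MG, and 13.5, 10.2, and 20.3 for DBTRG-05MG as “Vec”. In “WWOX” libraries HERC5 held 11.5, 11.9, and 11.1 CPM for U87MG, 3.998, 2.301, and 5.15 for T98G, 10.8, 13.9, and 19.8 for U251MG, and 11.7, 20.99, and 13.6 for DBTRG-05MG. Among the HERC5 “Vec” libraries those of T98G lay below all other “Vec” libraries, and on scaled values the variants did not overlap in U87MG (“WWOX” lower). HERC5, the ligase that attaches ISG15 to proteins, was the other, at 0.85 ± 0.24 (SE, adjusted p = 0.00596), and its 3 U87MG “Vec” libraries ran from 14.98 to 15.5 CPM.

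In T98G 15 of 41 members passed (36.6%, against 40.5% of all genes), 11 higher (26.8%, against 20.1%) and 4 lower (9.76%, against 20.4%). The higher members included all 4 of the IFITM family and tetherin, and all 3 tested transcription regulators (STAT2, IRF1, and IRF7). STAT2 in T98G, at 0.58 ± 0.18 (SE, adjusted p = 0.0126), was lost without T98G “Vec” 1 (0.51, adjusted p = 0.0767 with limma) or “Vec” 3 (0.50, adjusted p = 0.0817 with limma). IFITM2 held 9.44, 13.7, and 7.93 CPM for U87MG, 125, 156, and 138 for T98G, 34.6, 21.6, and 16.9 for U251MG, and 2.81, 0.515, and 2.11 for DBTRG-05MG as “Vec”. In “WWOX” libraries IFITM2 held 4.83, 9.09, and 15.8 CPM for U87MG, 89.8, 136, and 97.98 for T98G, 3.57, 60.5, and 37.9 for U251MG, and 1.12, 2.14, and 2.399 for DBTRG-05MG. Among the IFITM2 “Vec” libraries those of T98G lay above all other “Vec” libraries and those of DBTRG-05MG lay below all other “Vec” libraries, and on scaled values the variants overlapped in every line. IFITM2 was higher in T98G by 4.24 ± 0.57 (SE, adjusted p = 2.92e-06) and differed by -4.13 ± 0.57 (SE, adjusted p = 4.09e-06) in DBTRG-05MG. IFITM1 and IFITM2 overlap the same longer gene model (ENSG00000288681) and are close in sequence to IFITM3, so the split of tags among them is uncertain. IFITM3 held 123, 119, and 68.04 CPM for U87MG, 776, 1075, and 1037 for T98G, 496, 242, and 244 for U251MG, and 203, 128, and 212 for DBTRG-05MG as “Vec”. In “WWOX” libraries IFITM3 held 75.9, 79.7, and 110.1 CPM for U87MG, 1106, 1407, and 1357 for T98G, 106, 742, and 294 for U251MG, and 132, 212, and 154 for DBTRG-05MG. Among the IFITM3 “Vec” libraries those of T98G lay above all other “Vec” libraries and those of U87MG lay below all other “Vec” libraries, and on scaled values the variants overlapped in every line. IFITM3, the member of the family with the highest mean level, was higher in T98G by 2.56 ± 0.43 (SE, adjusted p = 4.28e-05).

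SAMD9 held 1.56, 2.395, and 3.02 CPM for U87MG, 1.41, 4.82, and 1.09 for T98G, 6.73, 5.25, and 2.68 for U251MG, and 26.5, 15.5, and 72.7 for DBTRG-05MG as “Vec”. In “WWOX” libraries SAMD9 held 2.75, 0.9501, and 1.27 CPM for U87MG, 1.95, 2.004, and 3.17 for T98G, 3.84, 3.58, and 9.198 for U251MG, and 26.2, 69.7, and 23.5 for DBTRG-05MG. Among the SAMD9 “Vec” libraries those of DBTRG-05MG lay above all other “Vec” libraries, and on scaled values the variants overlapped in every line. SAMD9, an inhibitor of poxvirus replication, was the member with the largest difference downward in T98G, -1.5 ± 0.41 (SE, adjusted p = 0.00526), lost without T98G “Vec” 3 (-1.23, adjusted p = 0.0541 with limma). In DBTRG-05MG it was higher by 3.12 ± 0.41 (SE, adjusted p = 1.7e-06). EPSTI1 held 2.41, 2.78, and 1.54 CPM for U87MG, 1.76, 6.203, and 1.95 for T98G, 26.4, 14.2, and 25.8 for U251MG, and 9.95, 5.86, and 8.04 for DBTRG-05MG as “Vec”. In “WWOX” libraries EPSTI1 held 1.28, 0.543, and 0.254 CPM for U87MG, 0.372, 2.15, and 1.19 for T98G, 6.93, 20.2, and 15.8 for U251MG, and 3.01, 7.97, and 5.21 for DBTRG-05MG. Among the EPSTI1 “Vec” libraries those of U251MG lay above all other “Vec” libraries, and on scaled values the variants did not overlap in U87MG (“WWOX” lower). EPSTI1, a gene named for its induction in epithelium by stroma, differed by -1.14 ± 0.41 (SE, adjusted p = 0.0321) in T98G and by 2.3 ± 0.41 (SE, adjusted p = 0.000121) in U251MG. The T98G call was lost under 12 of the other settings, 6 of them leaving out 1 library (T98G “Vec” 1 or 3, DBTRG-05MG “Vec” 1, U87MG “Vec” 2, or U251MG “Vec” 1 or 3), with the highest adjusted p without T98G “Vec” 1 (-0.86, adjusted p = 0.195 with limma). PARP9 held 4.9, 4.79, and 6.52 CPM for U87MG, 6.397, 8.52, and 5.45 for T98G, 27.8, 65.01, and 34.4 for U251MG, and 20.4, 14.8, and 29.97 for DBTRG-05MG as “Vec”. In “WWOX” libraries PARP9 held 7.098, 6.24, and 7.199 CPM for U87MG, 4.83, 7.05, and 7.07 for T98G, 19, 17.5, and 46.3 for U251MG, and 24.8, 30.97, and 17.2 for DBTRG-05MG. Among the PARP9 “Vec” libraries no line stood clear of the others, and on scaled values the variants did not overlap in U87MG (“WWOX” higher). PARP9, an ADP-ribosyltransferase that works with DTX3L, differed by -1.14 ± 0.25 (SE, adjusted p = 0.000823) in T98G and by 1.97 ± 0.25 (SE, adjusted p = 1.18e-06) in U251MG. PARP9 and DTX3L overlap on opposite strands, and whether the counting used strand is not given in the sources used here.

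In U251MG 6 of 41 members passed (14.6%, against 34.9% of all genes), 4 higher (9.76%, against 16.5%) and 2 lower (4.88%, against 18.4%). Without U251MG “Vec” 1, the library in which most members were highest, 10 passed. IFIT2 held 2.34, 1.62, and 1.54 CPM for U87MG, 6.61, 12.3, and 4.83 for T98G, 29.5, 13.1, and 17.2 for U251MG, and 11.9, 5.99, and 16.9 for DBTRG-05MG as “Vec”. In “WWOX” libraries IFIT2 held 3.06, 1.56, and 2.12 CPM for U87MG, 3.25, 7.496, and 8.98 for T98G, 21.9, 20.8, and 39.5 for U251MG, and 15.2, 22.7, and 11.9 for DBTRG-05MG. Among the IFIT2 “Vec” libraries those of U87MG lay below all other “Vec” libraries, and on scaled values the variants overlapped in every line. IFIT2, which binds viral RNA, was higher in U251MG by 1.64 ± 0.32 (SE, adjusted p = 0.000312). IRF7 held 9.94, 7.495, and 3.51 CPM for U87MG, 46.5, 39.03, and 52.5 for T98G, 0, 0.0796, and 0.06697 for U251MG, and 14.1, 5.86, and 13.8 for DBTRG-05MG as “Vec”. In “WWOX” libraries IRF7 held 6.91, 14.8, and 15.2 CPM for U87MG, 50.95, 40.5, and 46.8 for T98G, 0, 0, and 0 for U251MG, and 7.79, 13.02, and 14.1 for DBTRG-05MG. Among the IRF7 “Vec” libraries those of T98G lay above all other “Vec” libraries and those of U251MG lay below all other “Vec” libraries, and on scaled values the variants overlapped in every line. IRF7, the factor that drives the interferon alpha genes, held at most 1 tag in any U251MG library. In U251MG “Vec” it differed by -4.84 (log2, adjusted p = 3.72e-11 with limma). Set at 3 tags, U251MG “Vec” is at least 88.1-fold below the arithmetic mean CPM of the other “Vec” groups, 21.4 CPM, a bound and not the tested difference. TRIM22 held 19.9, 18.4, and 24.8 CPM for U87MG, 9.98, 20.7, and 7.86 for T98G, 15.1, 7.798, and 8.44 for U251MG, and 24.9, 14.9, and 31.8 for DBTRG-05MG as “Vec”. In “WWOX” libraries TRIM22 held 31.02, 24.2, and 25.8 CPM for U87MG, 7.62, 14.4, and 10.4 for T98G, 4.05, 11.01, and 9.67 for U251MG, and 27.01, 40.9, and 24.8 for DBTRG-05MG. Among the TRIM22 “Vec” libraries no line stood clear of the others, and on scaled values the variants did not overlap in U87MG (“WWOX” higher). TRIM22, a ubiquitin ligase that restricts viral transcription, differed by -0.89 ± 0.32 (SE, adjusted p = 0.0318) in U251MG. That call was lost without any 1 of 4 libraries (U251MG “Vec” 2 or 3, T98G “Vec” 2, or DBTRG-05MG “Vec” 3), with values from -0.83 to -0.68.

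In DBTRG-05MG 10 of 41 members passed (24.4%, against 42.6% of all genes), 8 higher (19.5%, against 22.7%) and 2 lower (4.88%, against 19.9%). RSAD2 held 0.142, 0, and 0 CPM for U87MG, 0.281, 1.32, and 0.389 for T98G, 7.297, 0.159, and 1.14 for U251MG, and 9.1, 1.16, and 10.3 for DBTRG-05MG as “Vec”. In “WWOX” libraries RSAD2 held 0.122, 0, and 0 CPM for U87MG, 0.279, 0.445, and 0.06602 for T98G, 0, 13.2, and 12.5 for U251MG, and 1.298, 13.7, and 7.61 for DBTRG-05MG. Among the RSAD2 “Vec” libraries those of U87MG lay below all other “Vec” libraries, and on scaled values the variants overlapped in every line. RSAD2 (viperin), an enzyme that makes a chain-terminating nucleotide, was higher in DBTRG-05MG by 2.28 ± 0.82 (SE, adjusted p = 0.0297), with U87MG at or under 3 tags in every library, at least 14.9-fold below the mean of the other “Vec” groups. The RSAD2 call was lost without DBTRG-05MG “Vec” 1 (1.87, adjusted p = 0.146 with limma), without “Vec” 3 (1.85, adjusted p = 0.157 with limma), or without U251MG “Vec” 2 (2.003, adjusted p = 0.0502 with limma). Without DBTRG-05MG “Vec” 1 or 3, which held the highest value for 16 and 22 of the 41 members, 6 and 5 members passed in place of 10. STAT2 held 123, 77.9, and 81.7 CPM for U87MG, 112, 95.2, and 101 for T98G, 81.2, 61.5, and 61.6 for U251MG, and 69.3, 70.2, and 61.5 for DBTRG-05MG as “Vec”. In “WWOX” libraries STAT2 held 121, 97.5, and 97.99 CPM for U87MG, 108, 113, and 128 for T98G, 69.96, 67.9, and 70.1 for U251MG, and 86.1, 82.9, and 75.2 for DBTRG-05MG. Among the STAT2 “Vec” libraries no line stood clear of the others, and on scaled values the variants did not overlap in DBTRG-05MG (“WWOX” higher). STAT2, which carries the activation domain of the complex with IRF9, differed by -0.52 ± 0.18 (SE, adjusted p = 0.0216) in DBTRG-05MG, and not past the threshold without DBTRG-05MG “Vec” 3 (-0.40, adjusted p = 0.150 with limma).

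**Figure D4:**
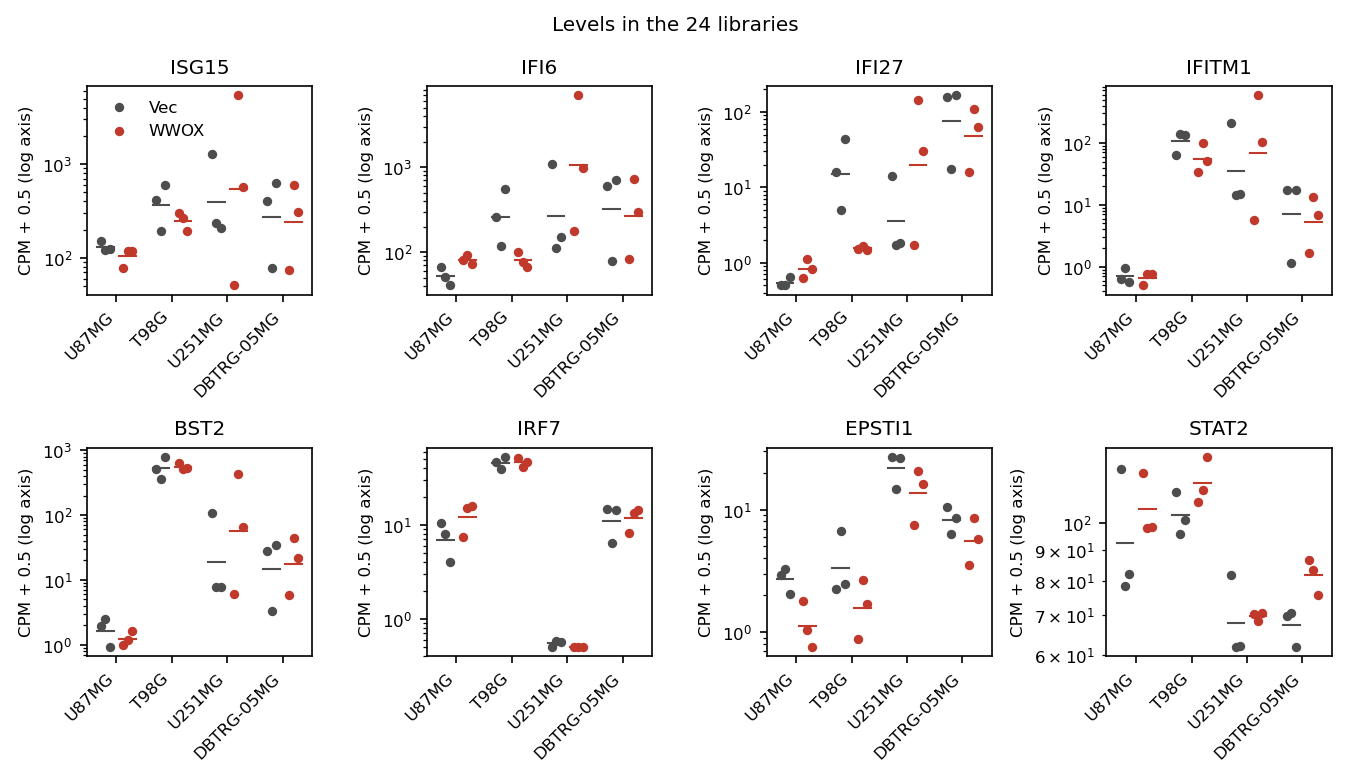
Level of 8 members (panels; vertical log axis, CPM + 0.5) in the 24 libraries by line (horizontal axis), with “Vec” in grey, “WWOX” in red, 1 point for each library and a bar at the geometric mean of a group. BST2 is highest in T98G and near 0 in U87MG in the “Vec” points, IFITM1 is under 0.5 CPM in all 6 U87MG libraries, IRF7 is near 0 in U251MG, and the 3 ISG15 points of U251MG “WWOX” run from 50.1 to 5408 CPM.

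The remaining genes with the highest mean level of their role group were described with all libraries. IRF1 held 125, 43.6, and 31.7 CPM for U87MG, 148, 164, and 160.2 for T98G, 112, 27.6, and 164 for U251MG, and 73.9, 87.5, and 60.5 for DBTRG-05MG as “Vec”. In “WWOX” libraries IRF1 held 93.1, 84.5, and 85.5 CPM for U87MG, 81.6, 131, and 71.4 for T98G, 97.7, 150.3, and 82.3 for U251MG, and 56.1, 64.99, and 59.6 for DBTRG-05MG. Among the IRF1 “Vec” libraries no line stood clear of the others, and on scaled values the variants did not overlap in T98G (“WWOX” lower). IRF1, a factor induced most strongly by interferon gamma, was higher in T98G “Vec” by 1.31 ± 0.43 (SE, adjusted p = 0.0186), and not past the threshold without T98G “Vec” 1 (1.35, adjusted p = 0.0534 with limma) or “Vec” 3 (1.21, adjusted p = 0.0863 with limma). ISG15 held 151, 119.5, and 124 CPM for U87MG, 416, 192, and 605 for T98G, 1268, 236, and 206 for U251MG, and 405, 76.4, and 633 for DBTRG-05MG as “Vec”. In “WWOX” libraries ISG15 held 78.2, 118, and 119 CPM for U87MG, 299.9, 263, and 194 for T98G, 50.1, 5408, and 568 for U251MG, and 73.8, 605, and 309 for DBTRG-05MG. Among the ISG15 “Vec” libraries no line stood clear of the others, and on scaled values the variants overlapped in every line. ISG15 passed in no “Vec” comparison. DHX58 held 8.24, 5.64, and 3.79 CPM for U87MG, 8.93, 5.64, and 10.8 for T98G, 22.2, 11.4, and 13.4 for U251MG, and 16.8, 9.4, and 16.99 for DBTRG-05MG as “Vec”. In “WWOX” libraries DHX58 held 7.04, 9.64, and 8.72 CPM for U87MG, 5.299, 4.305, and 4.29 for T98G, 8.57, 56.8, and 18.5 for U251MG, and 9.26, 19.2, and 14.3 for DBTRG-05MG. Among the DHX58 “Vec” libraries no line stood clear of the others, and on scaled values the variants overlapped in every line. DHX58 (LGP2), a helicase that tunes RNA sensing, passed in none either. IFIT1 held 2.41, 5.25, and 5.12 CPM for U87MG, 13.2, 11.7, and 10.2 for T98G, 70.2, 27.1, and 13.1 for U251MG, and 26.6, 6.31, and 24.8 for DBTRG-05MG as “Vec”. In “WWOX” libraries IFIT1 held 3.12, 3.39, and 5.93 CPM for U87MG, 6.69, 8.02, and 9.11 for T98G, 3.84, 138, and 94.1 for U251MG, and 18.2, 32.1, and 21.4 for DBTRG-05MG. Among the IFIT1 “Vec” libraries those of U87MG lay below all other “Vec” libraries, and on scaled values the variants did not overlap in T98G (“WWOX” lower). IFIT1, which binds uncapped or incompletely capped RNA, differed by -1.88 ± 0.71 (SE, adjusted p = 0.0352) in U87MG, a call lost under 10 other settings, among them leaving out any U87MG “Vec” library, DBTRG-05MG “Vec” 1 or 3, or U251MG “Vec” 1, with the highest adjusted p without U87MG “Vec” 1 (-1.54, adjusted p = 0.154 with limma).

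OAS3 held 4.97, 7.88, and 9.33 CPM for U87MG, 10.8, 11.7, and 12.4 for T98G, 22.5, 12.1, and 6.16 for U251MG, and 19.97, 4.06, and 28.1 for DBTRG-05MG as “Vec”. In “WWOX” libraries OAS3 held 3.85, 6.79, and 3.56 CPM for U87MG, 3.16, 9.203, and 5.41 for T98G, 3.09, 51.3, and 33.1 for U251MG, and 4.601, 19.1, and 10.1 for DBTRG-05MG. Among the OAS3 “Vec” libraries no line stood clear of the others, and on scaled values the variants did not overlap in T98G (“WWOX” lower). OAS3, an RNase L activator, passed in no “Vec” comparison. ISG20 held 7.31, 2.09, and 2.67 CPM for U87MG, 36.8, 77.3, and 60.9 for T98G, 26.6, 16.3, and 29.4 for U251MG, and 29.9, 26.4, and 28.1 for DBTRG-05MG as “Vec”. In “WWOX” libraries ISG20 held 4.41, 7.53, and 20.7 CPM for U87MG, 67.1, 115, and 66.8 for T98G, 25.6, 88.3, and 23.3 for U251MG, and 16.6, 34.1, and 27.4 for DBTRG-05MG. Among the ISG20 “Vec” libraries those of T98G lay above all other “Vec” libraries and those of U87MG lay below all other “Vec” libraries, and on scaled values the variants overlapped in every line. ISG20, an exonuclease, differed by -2.96 ± 0.47 (SE, adjusted p = 1.95e-05) in U87MG and by 2.14 ± 0.47 (SE, adjusted p = 0.000928) in T98G. GBP2 held 4.62, 4.56, and 2.52 CPM for U87MG, 10.7, 13.3, and 11.9 for T98G, 7.78, 10.98, and 10.4 for U251MG, and 14.1, 3.28, and 25.6 for DBTRG-05MG as “Vec”. In “WWOX” libraries GBP2 held 3.79, 3.19, and 4.15 CPM for U87MG, 2.603, 12.1, and 5.08 for T98G, 2.95, 5.22, and 7.304 for U251MG, and 6.13, 13.3, and 7.95 for DBTRG-05MG. Among the GBP2 “Vec” libraries no line stood clear of the others, and on scaled values the variants did not overlap in U251MG (“WWOX” lower). GBP2, a GTPase that binds membranes around pathogens, differed by -1.27 ± 0.42 (SE, adjusted p = 0.0182) in U87MG, and not past the threshold without U87MG “Vec” 3 (-0.97, adjusted p = 0.135 with limma). IFI6 held 66.8, 50.9, and 40.2 CPM for U87MG, 261, 118, and 550.4 for T98G, 1103, 111, and 151 for U251MG, and 608, 77.7, and 707 for DBTRG-05MG as “Vec”. In “WWOX” libraries IFI6 held 80.8, 91.8, and 71.4 CPM for U87MG, 101, 75.9, and 67.1 for T98G, 178, 6956, and 988 for U251MG, and 82.8, 731, and 299 for DBTRG-05MG. Among the IFI6 “Vec” libraries those of U87MG lay below all other “Vec” libraries, and on scaled values the variants did not overlap in U87MG (“WWOX” higher) or T98G (“WWOX” lower). IFI6 differed by -2.3 ± 0.9 (SE, adjusted p = 0.0426) in U87MG, a call lost under 11 other settings, among them the replicate block (adjusted p = 0.054 with limma) and leaving out any U87MG “Vec” library, U87MG “WWOX” 1, T98G “Vec” 1 or 3, DBTRG-05MG “Vec” 1 or 3, or U251MG “Vec” 1, with the highest adjusted p without U87MG “Vec” 3 (-2.07, adjusted p = 0.146 with limma). PLSCR1 held 31.8, 22.2, and 27.6 CPM for U87MG, 45.9, 65.8, and 42.6 for T98G, 50.8, 20.9, and 23.2 for U251MG, and 44.98, 38.3, and 43.9 for DBTRG-05MG as “Vec”. In “WWOX” libraries PLSCR1 held 54.8, 38.1, and 32.7 CPM for U87MG, 38.3, 57.8, and 65.96 for T98G, 53.98, 44.6, and 55.7 for U251MG, and 40.3, 48.9, and 34.6 for DBTRG-05MG. Among the PLSCR1 “Vec” libraries no line stood clear of the others, and on scaled values the variants overlapped in every line. PLSCR1, a phospholipid scramblase, was higher in T98G by 0.77 ± 0.23 (SE, adjusted p = 0.0107), and not past the threshold without T98G “Vec” 2 (0.65, adjusted p = 0.0572 with limma).

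Other members passed between the “Vec” libraries of the lines, and their differences are on the log2 scale with the SE. In U87MG those lower were OAS2 (-1.49 ± 0.61), IFIH1 (-0.84 ± 0.32), IFIT5 (-0.88 ± 0.25), XAF1 (-2.33 ± 0.39), SAMD9L (-1.39 ± 0.36), and MX1 (-2.22 ± 0.6), the GTPase that traps influenza virus. The OAS2 call was lost under 25 other settings, and the value was -0.88 (adjusted p = 0.335 with limma) without U87MG “Vec” 2. The IFIH1 call was lost under 12, and the value was -0.64 (adjusted p = 0.189 with limma) without U87MG “Vec” 1. In T98G XAF1 (2.04 ± 0.39) and MX2 (1.7 ± 0.64), a restriction factor of lentiviruses, were higher and HERC5 (-0.93 ± 0.24) was lower. The MX2 call was lost under 11 settings, and the value was 1.69 (adjusted p = 0.104 with limma) without T98G “Vec” 3. MX1 was higher in U251MG (1.55 ± 0.6), a call lost under 25 settings, with a value of 0.83 (adjusted p = 0.399 with limma) without U251MG “Vec” 1. In DBTRG-05MG HERC6 (1.46 ± 0.39), SAMD9L (1.19 ± 0.36), IFIT5 (0.63 ± 0.25), IRF7 (0.8 ± 0.31), and PARP9 (0.69 ± 0.25) were higher. IRF7 in DBTRG-05MG lay below T98G in every “Vec” library, and the mean it was compared with holds U251MG at no more than 1 tag. Its call was lost under 14 settings. Leaving out 1 library ended 4 of these 5 calls: SAMD9L was 0.76 (adjusted p = 0.157 with limma) without DBTRG-05MG “Vec” 3, IFIT5 0.41 (adjusted p = 0.29 with limma) without DBTRG-05MG “Vec” 3, IRF7 0.58 (adjusted p = 0.233 with limma) without DBTRG-05MG “Vec” 1, and PARP9 0.49 (adjusted p = 0.208 with limma) without DBTRG-05MG “Vec” 3. The members that passed in no “Vec” comparison were EIF2AK2, IFI35, OAS1, DHX58, OAS3, GBP1, IFIT3, IFI44L, IFI44, DTX3L, USP18, and ISG15. IFIT1, IFIT2, and IFIT3 overlap LIPA on the opposite strand, and whether tags were counted by strand is not given in the sources used here. On the same strand IFI6 overlaps LINC02574, and GBP2 overlaps GBP7 and ENSG00000289582, so the share of tags credited to these members is uncertain.

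The comparison of “WWOX” with “Vec” asks whether the variant that received WWOX transcribes these genes at another level. No member passed the adjusted threshold in limma in any line: U87MG gave 0 of 41 (3.2% of all genes passed), T98G 0 (1.14%), U251MG 0 (0.316%), and DBTRG-05MG 0 (1.02%). The mean of the 4 lines gave 0 of 41 (1.78% of all genes) and the test of a difference among the lines 0 of 41 (3.5%). Below an unadjusted p of 0.05 there were 1, 3, 3, and 0 members in the lines in the same order (11.5%, 11.5%, 11.5%, and 7.63% of all genes), 3 for the mean (15.4% of all genes) and 2 for the difference (14.6%). edgeR and limma-voom on the recovered tags gave 0 in all 6 comparisons, and DESeq2 gave 1 in T98G (IFI27), 1 for the mean (EPSTI1), 1 for the difference (IFI27), and 0 elsewhere. The 95% interval of a log2FC reached 1.09 to each side for the median member in a line and from 0.45 (STAT2) to 2.68 at most. The median SE was 0.53 over members and 0.32 over all genes.

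The median log2FC over the 41 was -0.11 in U87MG (16 above 0, 25 below), -0.53 in T98G (9 above, 32 below), 0.52 in U251MG (31 above, 10 below), and 0.04 in DBTRG-05MG (23 above, 18 below), with medians over all genes between -0.04 and 0.004. Above 0 in the same order were 39%, 22%, 75.6%, and 56.1% of members, against 47.9%, 45.5%, 49.7%, and 50.7% of all genes. Most members moved together within libraries of U251MG and DBTRG-05MG, so the genes are not separate observations. Without the members at or under 3 tags in every library of a variant, the median was -0.13 over 39 in U87MG and 0.53 over 40 in U251MG. Members whose 3 “WWOX” libraries did not overlap the 3 “Vec” libraries on the scaled log2 values numbered 6 in U87MG (14.6%, against 17.5% of all genes), 12 in T98G (29.3%, against 16.2%), 1 in U251MG (2.44%, against 10.4%), and 1 in DBTRG-05MG (2.44%, against 19.7%). In U87MG 3 were higher (IFI6, PARP9, and TRIM22) and 3 lower (HERC5, SAMD9L, and EPSTI1). The single genes were GBP2 in U251MG, lower in “WWOX”, and STAT2 in DBTRG-05MG, higher in “WWOX”. In T98G all 12 were lower in “WWOX”, against 9.21% of all genes that were lower without overlap. With the correction for GC content and length, 14 members were lower without overlap in T98G (10.2% of all genes) and 1 was higher, and the median was -0.46.

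The 12 in T98G were IRF1, USP18 (which removes ISG15 from proteins), HERC6, IFIH1 (the sensor MDA5), IFIT1, all 4 of the OAS family, IFI6, IFI27, and IFI44. The OAS family is shown as the group in which every member stood below. OAS1, OAS2, and OAS3 are neighbours on chromosome 12 and overlap the same gene model on the opposite strand (ENSG00000257452). OAS1 held 9.49, 7.77, and 10.4 CPM in T98G “Vec” and 4.09, 6.902, and 4.42 in “WWOX”, with a log2FC of -0.82 ± 0.94 (SE, adjusted p = 0.811). OAS3 held 10.8, 11.7, and 12.4 and 3.16, 9.203, and 5.41 CPM, with -1.03 ± 0.79 (SE, adjusted p = 0.677). IRF1 had -0.78 ± 0.53 (SE, adjusted p = 0.624) and IFIT1 -0.53 ± 0.87 (SE, adjusted p = 0.883). IFI27 was among the 12, with 15.3, 4.45, and 42.6 CPM in “Vec” and 1.02, 1.19, and 0.9904 in “WWOX”. Its log2FC was -3.29 ± 1.22 (SE, adjusted p = 0.248), with a 95% interval of -5.82 to -0.77, and it passed when U251MG was left out of the model (-3.29, adjusted p = 0.0461 with limma) or with DESeq2 (-4.37, adjusted p = 0.0431), over a range of adjusted p from 0.0431 to 0.642 among all settings.

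EPSTI1 was below “Vec” on average in all 4 lines, with log2FC of -1.34 ± 0.51 (SE) for U87MG, -1.1 ± 0.51 for T98G, -0.69 ± 0.51 for U251MG, and -0.63 ± 0.51 for DBTRG-05MG, and the libraries of the variants overlapped in all but U87MG. Its mean over the 4 lines was -0.94 ± 0.25 (SE, adjusted p = 0.0578) with limma, just outside the threshold. It passed without T98G “WWOX” 2 (-1.04, adjusted p = 0.0348 with limma), without U87MG “WWOX” 1 (-1.03, adjusted p = 0.0462 with limma), without U251MG “Vec” 2 (-1.02, adjusted p = 0.0494 with limma), and without U251MG “WWOX” 2 (-1.08, adjusted p = 0.0123 with limma). It also passed with DESeq2 (-1.06, adjusted p = 0.0242) and with the GC and length correction (-0.98, adjusted p = 0.0467 with limma), and the adjusted p ran from 0.0123 to 0.121 over all settings. For GBP2 the mean over the lines was -0.6 ± 0.26 (SE, adjusted p = 0.27) and for PLSCR1 0.32 ± 0.14 (SE, adjusted p = 0.285), both with an unadjusted p under 0.05 only.

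In U251MG ISG15 and IFI6, each the gene of highest level in its role group, had log2FC of 0.43 ± 1.17 (SE, adjusted p = 0.95) and 2.0 ± 1.11 (SE, adjusted p = 0.516), with intervals of -1.99 to 2.86 and -0.3 to 4.3. The sign for ISG15 turned without “WWOX” 2 (-1.46) and without “Vec” 3 (-0.02), and IFI6 ran from 0.42 to 3.38 when single libraries were left out. PLSCR1 (0.79 ± 0.28, SE, adjusted p = 0.255) passed without U251MG “Vec” 1 (1.21, adjusted p = 0.0252 with limma), and over all settings its adjusted p ran from 0.0252 to 0.998. HERC5 (0.64 ± 0.29, SE, adjusted p = 0.403) and PARP9 (-0.67 ± 0.3, SE, adjusted p = 0.399) had an unadjusted p under 0.05 only. In T98G the same held for XAF1, a binder of an inhibitor of apoptosis (-1.1 ± 0.48, SE, adjusted p = 0.375). XAF1 lies on chromosome 17, whose median log2FC in T98G was -0.35, and relative to it XAF1 stood at -0.75.

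In the other lines ISG15 had log2FC of -0.4 ± 1.17 in U87MG, -0.55 ± 1.17 in T98G, and -0.23 ± 1.17 in DBTRG-05MG, and IFI6 had 0.58 ± 1.11, -1.67 ± 1.11, and -0.36 ± 1.11 in the same order (SE). In DBTRG-05MG the sign of both genes turned without “Vec” 1, without “Vec” 3, or without “WWOX” 1, to 0.07, 0.32, and 0.65 for ISG15 and to 0.11, 0.15, and 0.51 for IFI6. HERC5 in U87MG (-0.44 ± 0.29, SE, adjusted p = 0.696) did not overlap between the variants, with 14.98, 14.99, and 15.5 CPM in “Vec” and 11.5, 11.9, and 11.1 in “WWOX”. STAT2 in DBTRG-05MG had 0.21 ± 0.22 (SE, adjusted p = 0.944), with 69.3, 70.2, and 61.5 CPM in “Vec” and 86.1, 82.9, and 75.2 in “WWOX”. For the difference among lines, OASL and IFI27 passed without U251MG “WWOX” 1, the library in which most members were lowest.

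**Figure D5:**
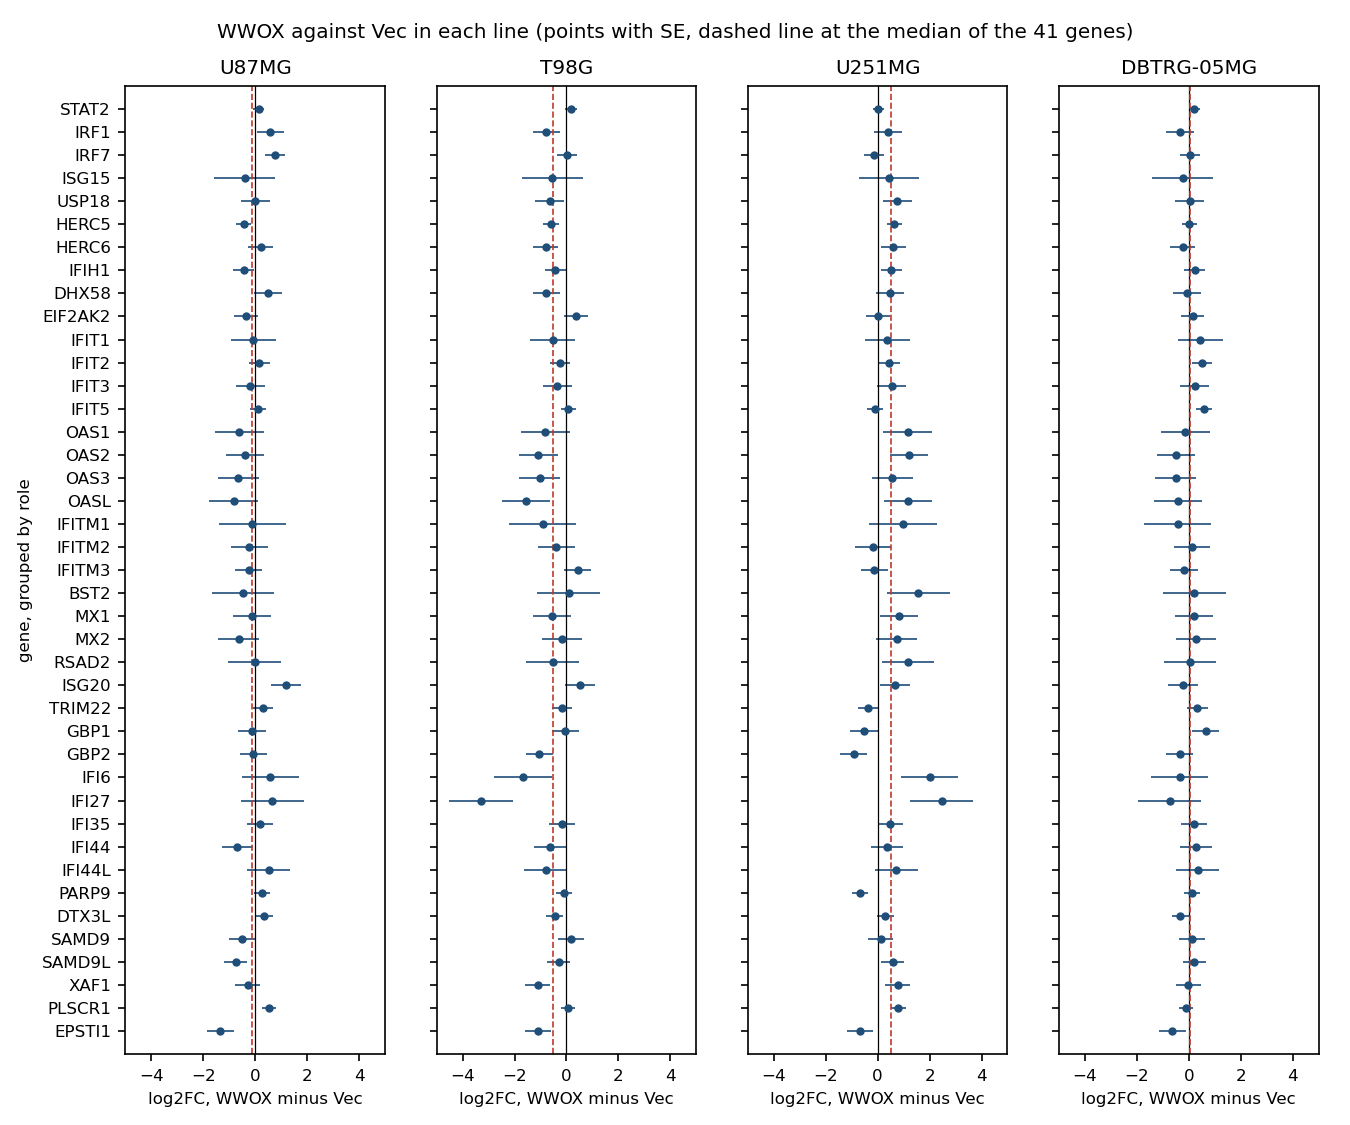
log2FC of “WWOX” versus “Vec” (horizontal axis, with SE) for the 41 tested members (rows, grouped by role) in the 4 lines (panels), with a dashed red line at the median. The medians are -0.11 (U87MG), -0.53 (T98G), 0.52 (U251MG), and 0.04 (DBTRG-05MG), and no point passed the adjusted threshold.

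Other genes of the pathway were read from a list of 46 (ligands, receptors, signal transduction, inhibitors, upstream sensing, and targets mostly of type II interferon), of which 30 passed the filter. The 9 interferon genes had group means of at most 0.194 CPM (IFNL1). The receptor chain IFNAR1 was present in all groups (group means from 20.2 to 52.2 CPM), whereas IFNAR2 had group means of at most 0.403 CPM. Overlaps with other gene models were read only for the members and WWOX. Whether tags of IFNAR2 were credited to it in full was therefore not tested, and its low value need not mean that the transcript is absent. Between “WWOX” and “Vec”, 1 of the 30 passed in U87MG (3.33%, against 3.2% of all genes) and 1 in DBTRG-05MG (3.33%, against 1.02%), 0 in T98G and U251MG, and 0 for the mean of the lines. IL10RB, a chain of the interferon lambda and interleukin-10 receptors, held 28.4, 35.2, and 35.1 CPM in U87MG “Vec” and 17.4, 19.3, and 14.3 in “WWOX” and fell by 0.997 ± 0.22 (log2, SE, adjusted p = 0.00958 with limma). The IL10RB call was lost without U87MG “WWOX” 3 (-0.90, adjusted p = 0.0572 with limma), without “Vec” 2 (-0.93, adjusted p = 0.0576 with limma), or with U87MG fitted alone (-0.998, adjusted p = 0.0517 with limma).

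GBP5, a GTPase induced by interferon gamma, held 0.458, 0.0644, and 0.329 CPM in DBTRG-05MG “Vec” and 2.12, 0.842, and 1.58 in “WWOX”, and rose by 1.26 ± 0.26 on the log2(CPM + 0.5) scale (SE, adjusted p = 0.0131 with limma). Its highest levels were in U251MG, where it held 30.6, 41.1, and 35.8 CPM in “Vec” and 24.3, 22.6, and 31.8 in “WWOX”, and its change differed among the lines (adjusted p = 0.0165 with limma). GBP5 passed the filter of 5 CPM only through U251MG, so it was not tested with DBTRG-05MG fitted alone or with U251MG left out, and with no filter both calls held (adjusted p = 0.0183 and 0.0326 with limma). Each of the 2 calls was lost under 8 of 36 other settings. These were the pseudocount of 0.1, edgeR, limma-voom, the GC and length correction with and without the replicate block, and leaving out DBTRG-05MG “Vec” 2, “WWOX” 1, or “WWOX” 3. In DBTRG-05MG the adjusted p with limma was 0.0935, 0.102, and 0.0891 without these libraries, and at most 0.179 under the settings that tested it, with the correction and the block. Between the “Vec” libraries of the lines, 17 of the 30 passed in U87MG (56.7%, against 45.1% of all genes, 5 higher and 12 lower) and 13 in T98G (43.3%, against 40.5%, 7 and 6). In U251MG 11 passed (36.7%, against 34.9%, 6 higher and 5 lower) and in DBTRG-05MG 16 (53.3%, against 42.6%, 8 and 8).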

How the data were processed

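CAGE-Seq libraries of 4 glioblastoma lines, each as “Vec” and “WWOX” with 3 libraries, were analysed. The authors deposited CPM per gene (tags scaled to a common library total). Their processing notes name STAR, SAMtools, hg38, and limma 3.42, and the strand used in counting is not given in the sources used here. The smallest positive CPM of a library was taken as the value of a tag. Divided by it, 100% of the deposited CPM values came out whole within 0.01. Tags were so recovered for edgeR and for the limit of detection of 3 tags, which covers counting error only. Groups came from the sample labels.

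CPM were divided by unweighted TMM factors and log2-transformed with a pseudocount of 0.5. Genes that reached 5 CPM in any 1 library were fitted in limma 3.58.1 (R 4.3.3) as 8 groups with 16 residual degrees of freedom, with two-sided tests and Benjamini-Hochberg adjustment over all genes at 0.05. Fold changes of low genes are understated on this scale. Levels are given as deposited CPM. Alternatives were pseudocounts of 0.1 and 1, other filters and scalings, a replicate block, a model of each line, edgeR 4.0.16, limma-voom and DESeq2 1.42.0 on recovered tags, and leaving out each library. Corrections for GC content and length and a model without U251MG were chosen after seeing the data. Scripts were tested on simulated data.

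The members and lists were chosen with earlier results of these data known. Genes named in the text were the 3 members past the threshold with the largest difference in each direction in each “Vec” comparison and the member with the highest mean CPM in each role group. Others are identified as named after their values were seen, or were singled out by an unadjusted p under 0.05 or by libraries that did not overlap. Replicate numbers were not used to pair libraries, because correlations of same-numbered libraries ran from -0.546 to 0.51.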

Additional observations from a re-analysis of the deposited data

Results flagged for a closer look

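GBP5, a pathway gene outside the 43 members, differed among the 4 lines in its change between “WWOX” and “Vec” (limma, adjusted p = 0.0165, and 0.0007 to 0.125 over all settings). Its log2FC was 1.26 in DBTRG-05MG, where the 3 “WWOX” libraries lay above the 3 “Vec” libraries at no more than 2.12 CPM. GBP5 passed the filter of 5 CPM only through U251MG, and the difference among lines passed with no filter (adjusted p = 0.0326 with limma) and was lost under 8 of 36 other settings, among them edgeR (adjusted p = 0.0848) and leaving out DBTRG-05MG “Vec” 2, “WWOX” 1, or “WWOX” 3 (adjusted p = 0.0598, 0.0658, and 0.0612 with limma).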

How the results depend on the processing

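The number of members past the threshold between “WWOX” and “Vec” stayed at 0 in U87MG and DBTRG-05MG under every setting run. It was 1 in T98G with DESeq2 or with U251MG left out, 1 for the mean of the lines with DESeq2, with the GC and length correction, or with that correction and the replicate block, and 1 for the difference among lines with DESeq2. Leaving out 1 library at a time gave 0 to 1 in U251MG, 0 to 1 for the mean, and 0 to 2 for the difference. In the “Vec” comparisons it gave 5 to 10 in U251MG, 5 to 14 in DBTRG-05MG, 15 to 24 in U87MG, and 10 to 16 in T98G. The log2FC changed sign for ISG15 in U251MG (-1.46 to 2.22), ISG15 in DBTRG-05MG (-1.10 to 0.65), and IFI6 in DBTRG-05MG (-1.34 to 0.51). Of 1790 values of 48 named differences, 1745 kept direction and side of the threshold, 10 moved past it, 27 lost it, and 8 changed sign. The 48 leave out less stable “Vec” calls named above, so they do not measure the stability of all calls. Among those left out were OAS2 in U87MG and MX1 in U251MG, each lost under 25 settings, and RSAD2 in U87MG, lost under 23. The cause of these changes was not tested.

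With the replicate block alone, 0 members passed in any “WWOX” comparison. The numbers do not pair the libraries (correlation of same-numbered libraries from -0.546 to 0.51). Over all genes, calls in T98G numbered 140 in the model reported, 112 with the block, 273 with DESeq2, 271 with no filter, 74 with a mean of at least 5 CPM, and 11 with T98G fitted alone. In U251MG they numbered 39, and 162 with DESeq2, 14 with edgeR, and 2 with the line fitted alone. Leaving out 1 library of the line moved these counts to between 45 (without T98G “WWOX” 3) and 394 (without T98G “Vec” 2) in T98G, and to between 13 (without U251MG “Vec” 3) and 557 (without U251MG “WWOX” 2) in U251MG. Depth limits the members at or under 3 tags in a group, whose folds are only bounds.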
